A study of Homo sapiens with 18 samples.

Results

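The RNA exosome core was described here through the mRNAs of its 10 subunits, EXOSC1 to EXOSC10, in DLD1 cells, a line established from a human colorectal adenocarcinoma. The members are the rows of the poly(A) count table that carry these symbols, 10 of 47021 genes, and all 10 passed the low-count filter that left 14732 genes for testing. The groups were DLD1 cells carrying guide 1 against ZNF692 (sgZ1) or guide 3 against ZNF692 (sgZ3), both given the genotype ZNF692 KO, and cells carrying the control guide (sgC), given the genotype WT. All 3 groups were infected with lentivirus, selected with puromycin at 10 µg/ml as stable lines and grown in DMEM with 5% serum and penicillin-streptomycin, and each had 3 poly(A) libraries and 3 libraries counted over ribosomal RNA. The sources used here do not say whether a line was a clone or a pool, nor whether replicates were separate cultures. The spread behind each p-value is therefore that between libraries, and it may be technical. Levels are given as CPM, a gene's count relative to the library's total scaled by TMM, a scaling in which most genes are taken to be equal between libraries.

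The exosome degrades and trims RNA from its tail end in the nucleus and the cytoplasm. A ring of RNase PH-like proteins (EXOSC4 to EXOSC9), arranged in pairs, carries a cap of RNA-binding proteins (EXOSC1 to EXOSC3). The ring and cap have no catalytic activity of their own in human cells and thread RNA to the exonuclease DIS3 below the ring, while EXOSC10, a distributive exonuclease of the nucleus and nucleolus, sits on the cap side. In the nucleolus the complex, with the helicase MTREX, removes spacers from ribosomal RNA precursors and trims the tail end of 5.8S rRNA, which is how it takes part in making both ribosomal subunits.

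Taking both ZNF692 guides together, most cap and ring mRNAs were higher than with the control guide, while EXOSC1, EXOSC8 and the exonuclease EXOSC10 did not pass the test. Over both guides, 7 of 10 members were higher and 0 were lower at a false discovery rate under 0.05, by the quasi-likelihood test of edgeR, adjusted over all tested genes after Benjamini and Hochberg. In the same comparison 33.2% of all tested genes were called, 18.6% higher and 14.6% lower. The median log2 fold change was 0.36 over the members and 0.01 over all tested genes, whose quartiles were -0.25 and 0.28. In 6 members each of the 6 sgZ1 and sgZ3 libraries was above each sgC library, which held for 11.9% of tested genes. The 7 members that rose did so by 1.28-fold to 1.68-fold.

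**Figure D1:**
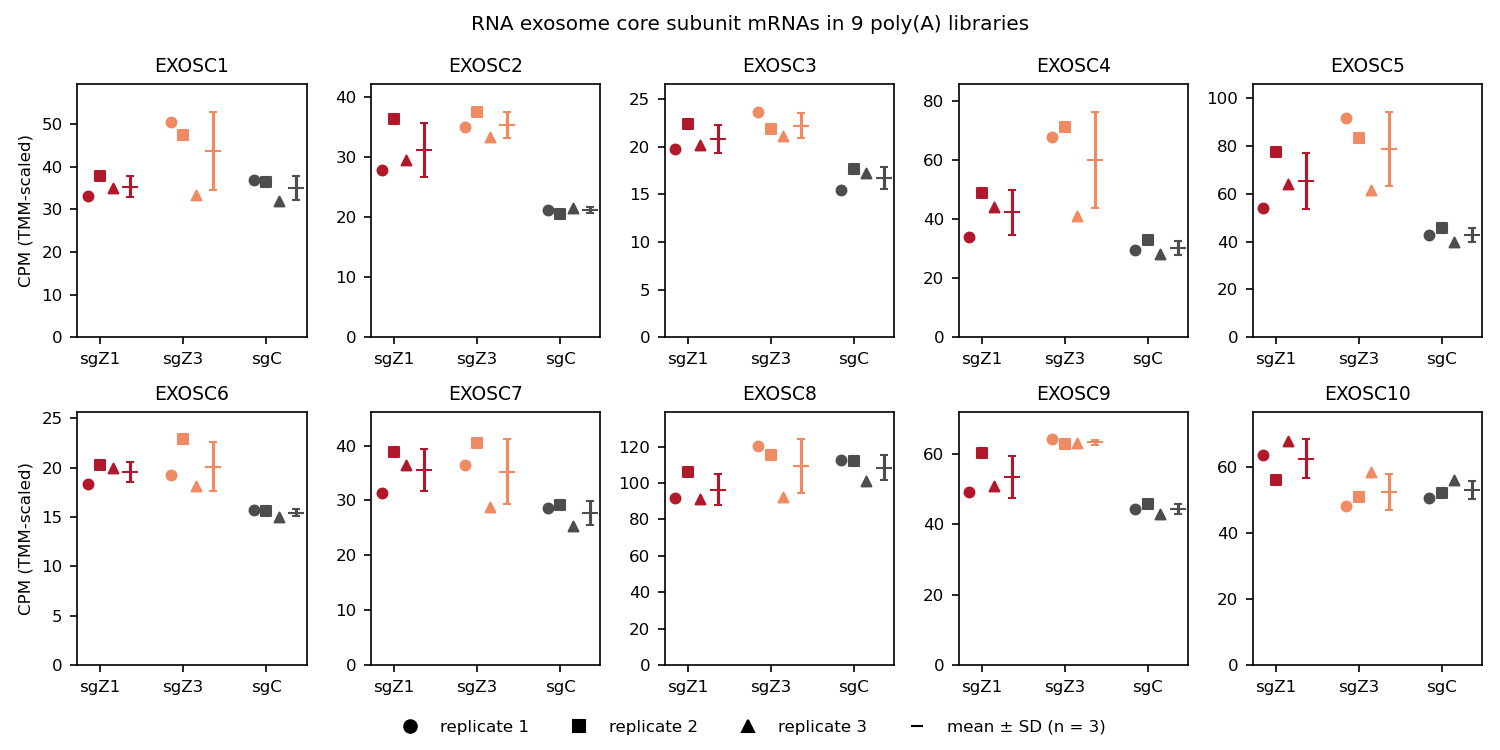
TMM-scaled CPM (vertical axes, starting at 0) of the 10 core subunit mRNAs in each library labelled sgZ1, sgZ3 or sgC. Symbols are replicates 1 to 3 and the bar beside them is the mean ± SD (n = 3). EXOSC2 sat at 27.9 to 37.6 CPM in the 6 sgZ1 and sgZ3 libraries, all above the 3 sgC libraries, while EXOSC8 and EXOSC10 overlapped between these groups.

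Before the members are taken up, some library facts bear on all of them. The 9 poly(A) libraries held 16044224 to 24535642 counts each. The 8 epithelial markers, among them EPCAM, CDH1, KRT8, KRT18 and CDX2, were all detected, with a summed level of 7180 to 7970 CPM in sgZ1, 8988 to 9633 CPM in sgZ3 and 7446 to 8120 CPM in sgC, and LGALS4 was the lowest of them at 1.49 to 4.72 CPM. ZNF692 mRNA was not lower with either guide (log2 fold change 0.66 for sgZ1, adjusted p = 0.0048, and 0.19 for sgZ3, adjusted p = 0.32). An edited gene may keep its mRNA, and the labels could not be checked by this level. The sgZ1 libraries stood apart in MSH6, a mismatch-repair gene, at 67.3 to 74.8 CPM in sgZ1, 4.40 to 8.53 CPM in sgZ3 and 6.53 to 9.48 CPM in sgC, so each guide is also given alone. Transcripts of mesenchymal cells were shared by sgZ1 replicate 2 and sgZ3 replicate 3, where the 9 markers summed to 113 and 116 CPM against 8.93 to 12.8 CPM in the other 7 libraries. VIM and SPARC led that sum, while COL1A2, DCN and LUM were at or near 0 in all 9 libraries, and 5 leukocyte markers summed to 4.12 to 5.84 CPM, nearly all from CD14. In bulk RNA, fewer cells of a type and less RNA per cell cannot be told apart.

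Upstream sequence is shown for 3 members, EXOSC2 and EXOSC9, which rose over both guides, and EXOSC10, which did not pass the test. RefSeq promoter entries (GRCh38.p14) existed for 8 of 10 members, with 250 bases before the start searched on both strands, and only stretches outside all GENCODE 29 exons are printed. The 250 bases before EXOSC6, which also rose, lay outside exons too. They held none of the motifs named here or below and are not printed. Capitals mark the letters CCAAT or GGGCGG (an SP1 motif) or their reverse complements, none of which overlapped. The stretches are chr9:130693510-130693720 for EXOSC2 (plus strand), chr4:121801073-121801316 for EXOSC9 (plus strand) and chr1:11099911-11100119 for EXOSC10 (minus strand), each written in the direction of its gene.
EXOSC2: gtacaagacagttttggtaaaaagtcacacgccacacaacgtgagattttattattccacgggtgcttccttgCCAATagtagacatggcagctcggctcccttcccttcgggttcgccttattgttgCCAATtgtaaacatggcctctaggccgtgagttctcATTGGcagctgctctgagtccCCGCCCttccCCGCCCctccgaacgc
EXOSC9: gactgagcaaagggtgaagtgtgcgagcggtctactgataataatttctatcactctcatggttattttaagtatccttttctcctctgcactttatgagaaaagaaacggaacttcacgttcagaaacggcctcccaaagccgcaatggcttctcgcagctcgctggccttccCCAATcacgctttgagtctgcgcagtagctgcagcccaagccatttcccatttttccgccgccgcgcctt
EXOSC10: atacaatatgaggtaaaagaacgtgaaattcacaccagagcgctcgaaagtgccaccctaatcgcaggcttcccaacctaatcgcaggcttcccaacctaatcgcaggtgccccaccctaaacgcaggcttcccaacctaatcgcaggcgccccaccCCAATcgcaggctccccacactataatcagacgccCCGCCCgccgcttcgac

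The windows of 250 bases also held matches outside these stretches. GGGCGG was found before 6 of the 8 members and in 42.64% of 35116 promoters, and CCAAT before 4 of 8 and in 32.01%. CACGTG, an E-box, was found before EXOSC5 alone among the 8, 89 bases before its start, and in 6.34% of promoters. GCGCATGC, an NRF1 motif, was found before EXOSC10 alone (2.63% of promoters) and CCGGAAG, an ETS motif, before none of the 8 (8.52%). RefSeq starts are not those of the gene coordinates given here: the RefSeq start lies 1970 bases inside the GENCODE 29 gene for EXOSC8, 1003 for EXOSC7 and 120 for EXOSC5, and 16345 or 16373 for the 2 entries of EXOSC3, so those windows lie wholly or partly within the gene. These are matches of letters in a window and not sites of binding.

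The cap mRNAs EXOSC2 and EXOSC3 rose with both guides and EXOSC1 was not called. EXOSC2 (chromosome 9, 130693721 to 130704894, plus strand, GRCh38), the counterpart of yeast Rrp4, had 27.9, 36.4 and 29.6 CPM in sgZ1, 35.1, 37.6 and 33.4 CPM in sgZ3, and 21.3, 20.6 and 21.6 CPM in sgC. The 6 sgZ1 and sgZ3 libraries were all above the 3 sgC libraries, which lay close together. Over both guides EXOSC2 was 1.57-fold higher (log2 fold change 0.65, SE 0.10, edgeR adjusted p = 0.00084), with 0.56 for sgZ1 (SE 0.113, adjusted p = 0.0034) and 0.74 for sgZ3 (SE 0.114, adjusted p = 0.00085). It kept these calls in each of the 18 or 19 other settings tried for a comparison, with an adjusted p of at most 0.022.

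EXOSC3 (chromosome 9, 37766978 to 37801437, minus strand), the counterpart of yeast Rrp40 and a gene in which inherited mutations cause pontocerebellar hypoplasia, had 19.8, 22.4 and 20.2 CPM in sgZ1, 23.7, 21.9 and 21.1 CPM in sgZ3, and 15.4, 17.6 and 17.2 CPM in sgC. The sgC libraries were again the 3 lowest. EXOSC3 was 1.28-fold higher over both guides (log2 fold change 0.36, SE 0.093, adjusted p = 0.012), with 0.31 (adjusted p = 0.046) for sgZ1 and 0.41 (adjusted p = 0.012) for sgZ3. Leaving out sgC replicate 1 or sgC replicate 3 ended the call over both guides (adjusted p of 0.088 and 0.050, in a range of 0.0031 to 0.088 over 18 settings). For sgZ1 it was lost in 15 of 19 settings (0.0080 to 0.20), including without any 1 library other than sgZ3 replicate 3, and for sgZ3 in 3 of 19 (0.0024 to 0.068), including without sgZ3 replicate 1 or sgC replicate 1.

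EXOSC1 (chromosome 10, 97436142 to 97446017, minus strand), the counterpart of yeast Csl4, had 33.0, 37.9 and 35.1 CPM in sgZ1, 50.6, 47.4 and 33.3 CPM in sgZ3, and 36.8, 36.4 and 31.9 CPM in sgC. In sgZ3, replicates 1 and 2 were above every sgC library and replicate 3 lay among them. Over both guides the log2 fold change was 0.17 (95% confidence interval -0.10 to 0.44, adjusted p = 0.31), with 0.32 (adjusted p = 0.096) for sgZ3. Without sgZ3 replicate 3, EXOSC1 passed over both guides (0.25, adjusted p = 0.034) and for sgZ3 (0.48, adjusted p = 0.0027). Over all settings the adjusted p ran from 0.034 to 0.69 over both guides and from 0.00025 to 0.36 for sgZ3.

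Of the 6 ring subunit mRNAs 5 rose over both guides, and EXOSC4 and EXOSC5 had the largest log2 fold changes of the 10 members over both guides, except with gene length and GC offsets. EXOSC4 (chromosome 8, 144078626 to 144080647, plus strand), the counterpart of yeast Rrp41, had 33.9, 48.9 and 44.1 CPM in sgZ1, 67.7, 71.0 and 41.2 CPM in sgZ3, and 29.6, 32.8 and 28.1 CPM in sgC. Every sgZ1 and sgZ3 library was above every sgC library, sgZ1 replicate 1 only just, and sgZ3 replicates 1 and 2 stood well above the other 7. It was 1.67-fold higher over both guides (log2 fold change 0.74, SE 0.17, adjusted p = 0.0070) and 1.99-fold higher for sgZ3 (0.99, SE 0.191, adjusted p = 0.0027). For sgZ1 alone the log2 fold change of 0.49 (SE 0.191) had an adjusted p of 0.078 and passed in 6 of 19 settings (0.00073 to 0.22), among them without sgZ1 replicate 1 (0.63, adjusted p = 0.045) and without sgZ3 replicate 3 (0.49, adjusted p = 0.0095).

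EXOSC9 (chromosome 4, 121801317 to 121817021, plus strand), the ring neighbour of EXOSC4 and an autoantigen in polymyositis with scleroderma, had 49.1, 60.3 and 50.8 CPM in sgZ1, 64.2, 62.8 and 63.2 CPM in sgZ3, and 44.4, 45.7 and 43.0 CPM in sgC. The 3 groups did not overlap, with sgZ3 highest and sgC lowest. EXOSC9 rose 1.31-fold over both guides (log2 fold change 0.39, SE 0.086, adjusted p = 0.0057) and for sgZ3 (0.51, SE 0.098, adjusted p = 0.0025). For sgZ1 it was 0.27 (SE 0.098, adjusted p = 0.063, 0.0047 to 0.20 over 19 settings), a value that passed without sgZ1 replicate 1 (0.32, adjusted p = 0.046) or sgZ3 replicate 3 (0.27, adjusted p = 0.048).

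A second ring pair, EXOSC5 and EXOSC8, differed within itself. EXOSC5 (chromosome 19, 41386374 to 41397479, minus strand), the counterpart of yeast Rrp46, had 54.2, 77.5 and 64.1 CPM in sgZ1, 91.6, 83.3 and 61.4 CPM in sgZ3, and 42.7, 45.7 and 39.9 CPM in sgC. Again the sgC libraries were the 3 lowest, and sgZ1 replicate 2 and sgZ3 replicate 3 lay in opposite places within their groups. EXOSC5 was 1.68-fold higher over both guides (log2 fold change 0.75, SE 0.14, adjusted p = 0.0025), with 0.61 (adjusted p = 0.014) for sgZ1 and 0.88 (adjusted p = 0.0019) for sgZ3. For sgZ1, dropping sgC replicate 1 or 3 ended the call (adjusted p of 0.059 and 0.063, in a range of 5e-06 to 0.063 over 19 settings).

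EXOSC8 (chromosome 13, 36998816 to 37009613, plus strand), the counterpart of yeast Rrp43, had 91.5, 106 and 91.3 CPM in sgZ1, 120.1, 115 and 92.5 CPM in sgZ3, and 112.5, 112.1 and 101 CPM in sgC. All 3 groups overlapped, with sgZ1 replicates 1 and 3 and sgZ3 replicate 3 below the sgC libraries. The log2 fold change over both guides was -0.08 (95% confidence interval -0.29 to 0.13, adjusted p = 0.54), with -0.17 (interval -0.42 to 0.08) for sgZ1 and 0.01 (interval -0.24 to 0.26) for sgZ3. These intervals do not reach the 0.75 found for its ring partner EXOSC5, though the difference between these genes was not itself tested. Without sgZ1 replicate 2 and sgZ3 replicate 3 the sgZ1 value passed as lower (-0.26, adjusted p = 0.016, with 0.016 to 0.66 over 19 settings).

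The third pair, EXOSC6 and EXOSC7, rose by smaller amounts. EXOSC6 (chromosome 16, 70246778 to 70251930, minus strand, a gene of 1 exon), the counterpart of yeast Mtr3, had 18.4, 20.3 and 20.0 CPM in sgZ1, 19.2, 22.9 and 18.2 CPM in sgZ3, and 15.7, 15.6 and 15.01 CPM in sgC. All sgC libraries were below the others and close together. Its log2 fold change was 0.36 over both guides (SE 0.099, adjusted p = 0.017), 0.34 for sgZ1 (adjusted p = 0.043) and 0.38 for sgZ3 (adjusted p = 0.022). The call over both guides was lost with library totals alone (adjusted p = 0.057) and without sgC replicate 1, 2 or 3 (0.067, 0.057 and 0.085), in a range of 0.0023 to 0.085, while the sgZ1 call was lost in 10 of 19 settings (0.020 to 0.14) and the sgZ3 call in 5 (0.0025 to 0.13). Each sgC library was among those whose absence ended these calls, with sgZ1 replicate 2 or 3 or sgZ3 replicate 1 for sgZ1, and sgZ3 replicate 2 for sgZ3.

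EXOSC7 (chromosome 3, 44975241 to 45036066, plus strand), the counterpart of yeast Rrp42, had 31.3, 38.8 and 36.5 CPM in sgZ1, 36.4, 40.5 and 28.8 CPM in sgZ3, and 28.5, 29.2 and 25.3 CPM in sgC. In 5 of the 6 sgZ1 and sgZ3 libraries it was above every sgC library, and sgZ3 replicate 3 lay among them. It was called over both guides (log2 fold change 0.35, SE 0.117, adjusted p = 0.036) but for neither guide alone (0.36 for sgZ1, adjusted p = 0.065, and 0.35 for sgZ3, adjusted p = 0.060). This was the least stable of the 7 calls: it was lost in 9 of 18 settings (0.00095 to 0.17), among them without any 1 of the 3 sgC libraries, sgZ1 replicate 2 or 3, or sgZ3 replicate 1 or 2.

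EXOSC10 (chromosome 1, 11066618 to 11099881, minus strand), the counterpart of yeast Rrp6, had 63.7, 56.2 and 67.8 CPM in sgZ1, 48.2, 50.9 and 58.6 CPM in sgZ3, and 50.7, 52.3 and 56.2 CPM in sgC. The sgZ1 libraries lay above the highest sgC library, replicate 2 only just, and the sgZ3 libraries spread around the sgC values. It was not called over both guides (log2 fold change 0.11, 95% confidence interval -0.09 to 0.32, adjusted p = 0.36), for sgZ1 (0.24, adjusted p = 0.12) or for sgZ3 (-0.01, interval -0.25 to 0.22). The sgZ1 value passed without sgZ1 replicate 2 and sgZ3 replicate 3 (0.30, adjusted p = 0.0077, with 0.0077 to 0.33 over 19 settings) and with the length and GC offsets (0.23, adjusted p = 0.047).

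By guide, sgZ1 had 4 of 10 members higher and 0 lower, where 15.5% of tested genes were called higher and 10.3% lower. With sgZ3, 6 of 10 were higher and 0 lower, where 19.2% of tested genes were called higher and 17.1% lower. EXOSC2, EXOSC3, EXOSC5 and EXOSC6 were higher with each guide, as were 6.65% of tested genes, and these comparisons share the 3 sgC libraries. The members' median log2 fold change was 0.33 for sgZ1 (0.01 over all tested genes) and 0.39 for sgZ3 (-0.02 over all tested genes).

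**Figure D2:**
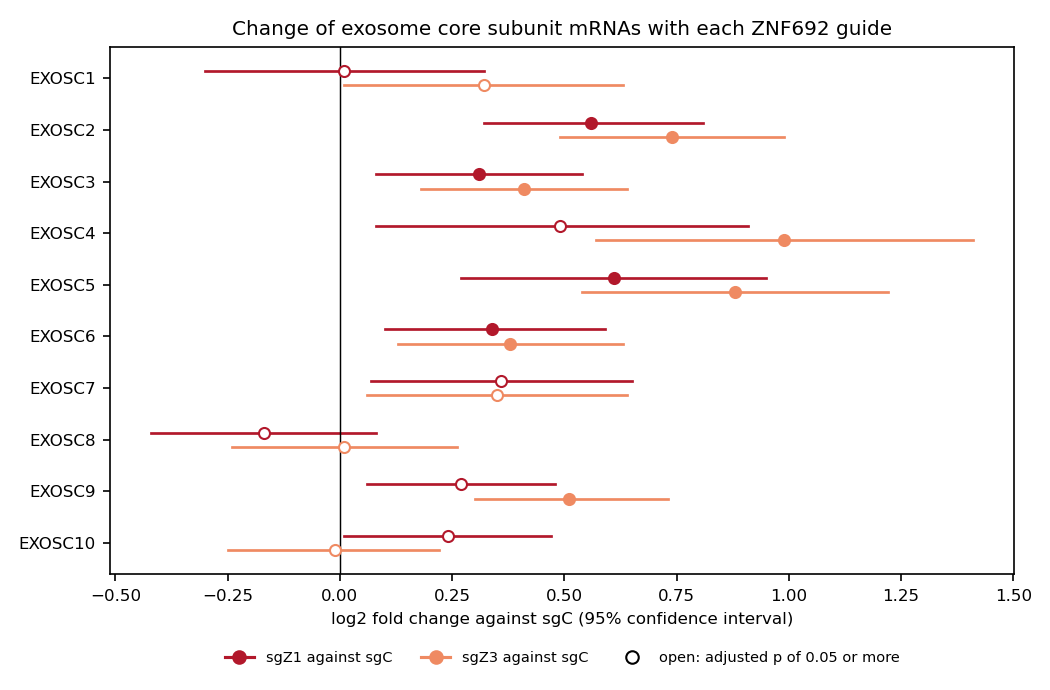
Log2 fold change (horizontal axis) of each core subunit mRNA in sgZ1 and in sgZ3 against sgC, with 95% confidence intervals from edgeR. Filled points passed a false discovery rate under 0.05 over all tested genes, 4 for sgZ1 and 6 for sgZ3, and open points did not.

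The difference between guides was tested directly. In sgZ3 against sgZ1, 0 of 10 members passed the quasi-likelihood test of edgeR, with 3 at an unadjusted p under 0.05, while 28.6% of tested genes passed (12.8% higher and 15.8% lower). These 3 were EXOSC4 (log2 fold change 0.50, adjusted p = 0.065), EXOSC9 (0.25, adjusted p = 0.077) and EXOSC10 (-0.25, adjusted p = 0.099). DESeq2 called 1 of the 10, EXOSC4 (0.52, adjusted p = 0.037, with 9.6e-07 to 0.25 over 19 settings). The count moved with 2 libraries, as did that of all tested genes: 4 members passed without sgZ1 replicate 2 (36.9% of tested genes), 5 without sgZ3 replicate 3 (41.0%) and 7 without both (53.2%), 6 of them higher in sgZ3 and EXOSC10 lower.

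Within their groups these 2 libraries, which carry the mesenchymal transcripts, also sat at opposite ends for the core. In sgZ1, replicate 2 was the highest of 3 for 9 of 10 members, the exception being EXOSC10, as it was for 37.7% of tested genes. In sgZ3, replicate 3 was the lowest of 3 for 8 of 10 members, the exceptions being EXOSC9 and EXOSC10, as it was for 38.7% of tested genes. Without both libraries, 8 of 10 members were called higher over both guides. Of 14923 tested genes, 3442 were then called higher and 3967 lower, or 49.6% in either direction. The members' log2 fold changes included 0.58 for EXOSC2, 0.76 for EXOSC4, 0.72 for EXOSC5 and 0.32 for EXOSC9. Leaving out an sgC library lowered the count: 4 members were called over both guides without sgC replicate 1 (14.5% of tested genes), 4 without sgC replicate 3 (15.9%) and 5 without sgC replicate 2 (22.1%).

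Levels per exon length placed the subunits on 1 scale, as CPM per kb of the exons of each gene in GENCODE 29. These lengths join the exons of all annotated transcripts of a gene, from 1407 nt for EXOSC4 to 6003 nt for EXOSC10. They are not lengths of the transcripts present, so the order, the sums and the shares depend on the annotation too. In sgC the order was EXOSC8 (29.9 ± 1.83), EXOSC5 (28.7 ± 1.97), EXOSC4 (21.4 ± 1.71), EXOSC1 (10.5 ± 0.825), EXOSC9 (9.42 ± 0.292), EXOSC10 (8.84 ± 0.468), EXOSC7 (6.23 ± 0.475), EXOSC3 (5.54 ± 0.382), EXOSC2 (4.99 ± 0.116) and EXOSC6 (3.00 ± 0.0741 CPM per kb, SD, n = 3 each). Neighbours whose sgC libraries overlapped, and so were not separated beyond their spread, were EXOSC8 and EXOSC5, EXOSC1 and EXOSC9, EXOSC9 and EXOSC10, and EXOSC7 and EXOSC3. Summed over the 10 members, the level was 140.3, 178 and 158 CPM per kb in sgZ1, 208, 204 and 154 CPM per kb in sgZ3, and 129, 135 and 122 CPM per kb in sgC. All 6 sgZ1 and sgZ3 sums were above the 3 sgC sums, with sgZ1 replicate 1 nearest to them.

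EXOSC8, like EXOSC1 and EXOSC10, was not called over both guides. Its share of the summed level was 16.8% ± 1.07 in sgZ1, 16.02% ± 0.493 in sgZ3 and 23.2% ± 0.645 in sgC (SD, n = 3 each). EXOSC5 made up 27.5% ± 1.65 in sgZ1, 27.96% ± 1.496 in sgZ3 and 22.3% ± 0.449 in sgC. EXOSC5 thus averaged 43.9 CPM per kb in sgZ1 and 52.9 in sgZ3, where it was the highest member, against 28.7 in sgC, where it lay beside EXOSC8.

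**Figure D3:**
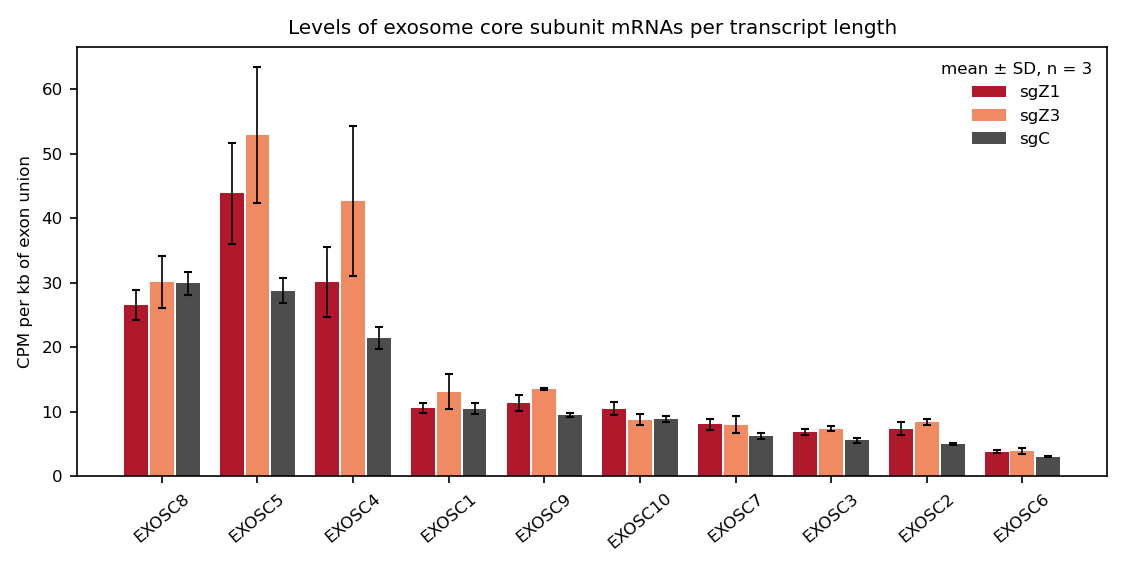
CPM per kb of exon length (vertical axis, starting at 0) for the 10 core subunit mRNAs, ordered by their sgC level. Bars are means of 3 libraries and error bars are SD, with sgZ1, sgZ3 and sgC side by side. EXOSC5 stood at 43.9 in sgZ1, 52.9 in sgZ3 and 28.7 in sgC, and EXOSC8 at 26.5 in sgZ1, 30.1 in sgZ3 and 29.9 in sgC.

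The members with the largest changes, EXOSC4 and EXOSC5, were also the shortest and the richest in GC, at 1407 and 1488 nt with 57.1% and 61.5% GC, against a median over tested genes of 4698 nt and 48.8%. With offsets for gene length and GC content, chosen after seeing the data, EXOSC4 and EXOSC5 each had a log2 fold change of 0.55 over both guides, EXOSC2 had 0.62 and EXOSC9 had 0.58, and 7 members were called higher. Some members share exon bases with other genes, and the strand setting of the counting is not given in the sources used here, so such reads cannot be assigned with certainty. EXOSC4 shares 274 exon bases (19.5%) with the antisense gene CTD-3065J16.9, which had 367 to 839 counts and was itself higher over both guides (log2 fold change 0.72, adjusted p = 0.0042). EXOSC3 shares 150 bases (5.0%) with RP11-613M10.9 on its own strand, which was also higher (0.82, adjusted p = 0.0025), and 96 bases (3.2%) with DCAF10, which was lower (-0.27, adjusted p = 0.035). EXOSC9 shares 254 bases (5.4%) with CCNA2, a cyclin gene that was not called (0.06, adjusted p = 0.61). Other genes that share exon bases included CLEC3B (604 bases of EXOSC7, 2 to 9 counts), SUPT20H (302 bases of EXOSC8, 204 to 539 counts), EXOSC10-AS1 (161 bases of EXOSC10, 6 to 19 counts), another antisense gene with 0 to 3 counts (2196 bases of EXOSC10), BCKDHA (20 bases of EXOSC5, 1 to 7 counts) and a miRNA gene (69 bases of EXOSC4). The part of such reads in the members' changes was not tested.

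Genes that work with the core were a list of 24 cofactors and related RNA-processing genes, all tested, of which 6 were higher, 4 lower and 14 not called over both guides. The median log2 fold change over this list was 0.04, against 0.01 over all tested genes, with 33.2% of all tested genes called in either direction. DIS3, the processive exonuclease of the nuclear complex, had 133.7, 129 and 118 CPM in sgZ1, 119, 115 and 143 CPM in sgZ3, and 122, 122 and 129 CPM in sgC. These groups overlapped (log2 fold change over both guides 0.02, 95% confidence interval -0.17 to 0.21, adjusted p = 0.87). DIS3L, its cytoplasmic relative, was at -0.09 (adjusted p = 0.35) and the helicase MTREX at 0.07 (adjusted p = 0.57). With length and GC offsets DIS3, MTREX and C1D passed as higher (0.30, 0.25 and 0.36, adjusted p of 0.0023, 0.0054 and 0.012), the only 1 of 18 settings in which they did (adjusted p up to 1.0, 0.87 and 0.93 in the others).

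Among cofactors that sit on the nuclear complex, MPHOSPH6, which helps to dock MTREX, had 59.3, 72.8 and 59.4 CPM in sgZ1, 63.7, 56.3 and 55.9 CPM in sgZ3, and 37.6, 46.1 and 38.3 CPM in sgC. All sgZ1 and sgZ3 libraries were above all sgC libraries, and MPHOSPH6 was 1.51-fold higher over both guides (log2 fold change 0.59, SE 0.105, adjusted p = 0.0018). C1D, which binds EXOSC10, was not called (0.13, SE 0.14, adjusted p = 0.50). In contrast, RBM7, the RNA-binding subunit of the nuclear exosome targeting (NEXT) complex, had 44.0, 38.9 and 31.6 CPM in sgZ1, 31.1, 31.9 and 32.8 CPM in sgZ3, and 52.8, 53.5 and 48.9 CPM in sgC. The sgC libraries were the 3 highest, and RBM7 fell by 0.57 on the log2 scale over both guides (SE 0.099, adjusted p = 0.0017). For sgZ1 alone it fell by 0.44 (adjusted p = 0.016, with 0.0015 to 0.070 over 19 settings), a call lost without sgC replicate 1 (0.067) or 2 (0.059) and with length and GC offsets (-0.23, 0.070).

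Several other partners are tied to ribosomal RNA maturation, and some of them rose while NVL (log2 fold change 0.05, adjusted p = 0.62) and XRN2 (0.01, adjusted p = 0.95), both named after their values were seen, did not pass. UTP18, a small-subunit processome protein that in yeast recruits the exosome helicase, had 119, 160.5 and 119 CPM in sgZ1, 147, 139.8 and 139.0 CPM in sgZ3, and 87.9, 90.5 and 86.6 CPM in sgC. No sgZ1 or sgZ3 library reached down to the sgC values, and UTP18 rose 1.55-fold over both guides (log2 fold change 0.64, SE 0.102, adjusted p = 0.0011). ISG20L2, a nucleolar exonuclease of 5.8S rRNA precursors, rose by a log2 fold change of 0.47 (SE 0.079, adjusted p = 0.0013). WDR74, a nucleolar partner of MTREX, rose by 0.47 (SE 0.105, adjusted p = 0.0059), ERI1, which trims the end of 5.8S rRNA, by 0.30 (SE 0.093, adjusted p = 0.027), and NOP53, which recruits MTREX to late precursors of the large subunit, by 0.25 (SE 0.081, adjusted p = 0.031).

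The calls for ERI1 and NOP53 were lost in 5 and 9 of 18 settings (adjusted p of 0.0015 to 0.13 and of 0.0039 to 0.15), for both without sgZ3 replicate 1, sgC replicate 1 or sgC replicate 3. XRN1, the cytoplasmic exonuclease that digests decapped mRNA, fell by 0.52 on the log2 scale (SE 0.135, adjusted p = 0.013, lost without sgC replicate 1 or 3, with 3.9e-06 to 0.069 over 18 settings). With length and GC offsets it was -0.20 over both guides (adjusted p = 0.047) and -0.19 for sgZ3 (0.084), against -0.60 for sgZ3 without them (0.013, with 6.1e-07 to 0.084 over 19 settings and lost in 5, including without sgZ3 replicate 1 or 2 or sgC replicate 1 or 3). ZCCHC8, the scaffold of NEXT, fell by 0.23 (SE 0.076, adjusted p = 0.034, lost in 7 of 18 settings with 0.0040 to 0.42), and only by 0.07 with length and GC offsets. The fourth partner that was lower was ZCCHC7, a zinc-knuckle protein of the TRAMP-like complex, named after its values were seen, which fell by 0.28 (SE 0.093, adjusted p = 0.038). That call was lost in 8 of 18 settings (0.0030 to 0.23), including without any 1 sgC library, sgZ1 replicate 1 or sgZ3 replicate 1 or 2. By guide, 6 of the 24 were higher and 1 lower in sgZ1, where 25.8% of tested genes were called, and 4 were higher and 5 lower in sgZ3, where 36.3% were called. These splits moved with the setting, as did those of all tested genes. With gene length and GC offsets 9 were higher and 2 lower over both guides, and 11 higher and 2 lower in sgZ3. With library totals alone 4 were higher and 5 lower over both guides, and 3 higher and 9 lower in sgZ3. Of all called genes, 56.0% over both guides and 52.9% in sgZ3 were higher. These shares became 59.9% and 59.5% with the offsets, and 36.6% and 29.6% with library totals. In sgZ3 against sgZ1 0 were higher and 2 lower, ZCCHC7 (log2 fold change -0.63, adjusted p = 0.0013) and ZCCHC8 (-0.33, adjusted p = 0.018).

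**Figure D4:**
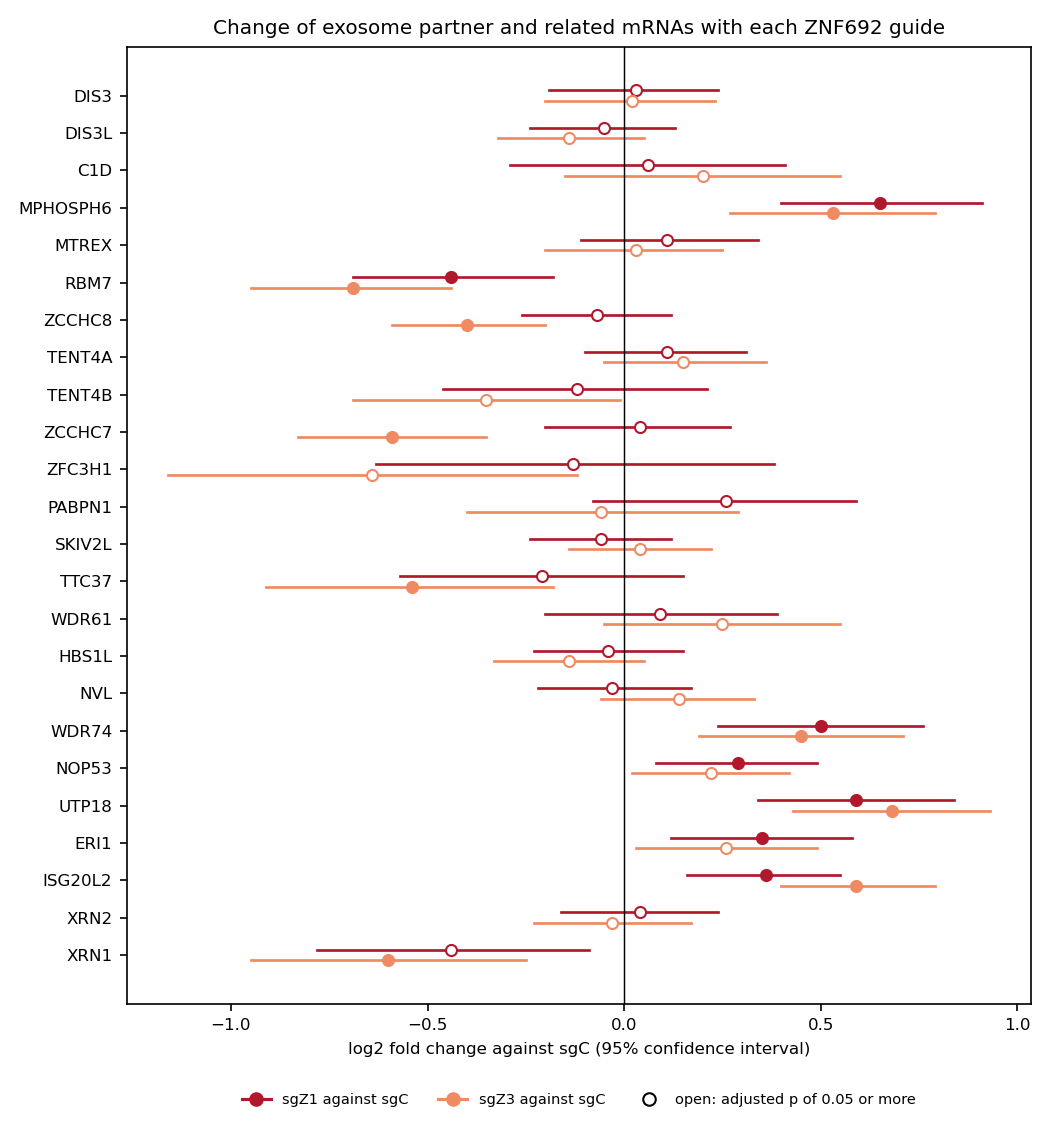
Log2 fold change (horizontal axis) of 24 partner and related genes in sgZ1 and in sgZ3 against sgC, with 95% confidence intervals from edgeR. Filled points passed a false discovery rate under 0.05 over all tested genes and open points did not. UTP18 and MPHOSPH6 were higher and RBM7 was lower with each guide, while DIS3 and MTREX lay near 0.

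Genes whose pattern over the 9 libraries was most like that of EXOSC2 were FN3KRP, ATG4B and CDCA5, by the root-mean-square difference of centred log2 CPM (0.065, 0.067 and 0.068). The nearest core members were EXOSC9 (0.138, rank 290 among tested genes) and EXOSC5 (0.149, rank 390), and the farthest was EXOSC10 (0.361, rank 5515).

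The ribosomal RNA libraries included counts for 5.8S rRNA, whose tail end the exosome trims. The 5 entries for 5.8S rRNA among 20 references took 0.139%, 0.547% and 0.276% of the estimated counts in sgZ1, 0.134%, 0.109% and 0.164% in sgZ3, and 0.417%, 0.178% and 0.230% in sgC. The sgZ3 shares were all below the sgC shares, and the sgZ1 shares spread on both sides of them. The log2 difference was -0.42 over both guides against sgC (two-sided exact permutation p = 0.476, 84 assignments) and 0.10 for sgZ1 (exact p = 0.9). For sgZ3 it was -0.94 (exact p = 0.1, the smallest p that 3 against 3 libraries allow). Entries for the 45S precursor took 74.5% to 75.3% of the estimated counts in these libraries. How reads were divided between them and the 5.8S entries was not tested. Mature and precursor 5.8S were not separated by the 5.8S entries, so the share does not measure trimming.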

How the data were processed

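In DLD1 cells with sgZ1, sgZ3 or sgC, 9 poly(A) and 9 ribosomal RNA libraries were made, and sample titles gave the groups. For 1 sgC sample the description points to the ribosomal RNA table, but its title and molecule are those of poly(A) RNA, and it was analysed as such. The poly(A) table deposited by the authors holds whole-number counts per gene, not normalized. Estimated counts, which need not be whole, were deposited by the authors for 20 ribosomal RNA entries. STAR 2.5.2b, SAMtools 1.9, HTSeq, DESeq2, hg38 and GRCh38 are named by the submitters' processing notes without roles. Neither an annotation release nor a strand setting is given in the sources used here.

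Counts were fitted with edgeR 4.0.16 in R 4.3.3 (filterByExpr, TMM, robust quasi-likelihood, group as the only term, all 9 libraries), with Benjamini-Hochberg adjustment over 14732 genes and a false discovery rate under 0.05. Contrasts set the mean of both guides or a single guide against sgC, or sgZ3 against sgZ1. Intervals are 95% and use the moderated degrees of freedom. The biological coefficient of variation was 12.7%. Data were also simulated for both guides against sgC (14482 genes, 50 changed at each fold size). The recovered share was 2.04% at 1.25-fold, 42.9% at 1.5-fold and 84% at 2-fold, and 6 of 117 calls were false. Far fewer genes changed there than were called in these data, so these shares do not carry over. Lengths and coordinates came from GENCODE 29 (GRCh38), which matched 99.2% of tested genes by base ID, and promoters from RefSeq (GRCh38.p14). The 5.8S entries were tested as log2 shares with a pseudocount of 0.5 and exact permutation.

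The members and lists were chosen with earlier results of these data known. Named were all members, ZNF692, MSH6, DIS3, DIS3L, MTREX, C1D, MPHOSPH6, up to 8 further called partners with the smallest adjusted p, and the 3 genes most like EXOSC2. Other settings were DESeq2 1.42.0, other scalings (RLE, upper quartile, library totals alone), no filter on low counts, a minimum mean of 10 CPM, fits restricted to the compared groups, a replicate block, each library left out, and sgZ1 replicate 2 and sgZ3 replicate 3 left out together. Gene length and GC offsets (loess, span 0.5) were added after seeing the data.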

Additional observations from a re-analysis of the deposited data

Results flagged for a closer look

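The effects of the 2 guides on 4 of the genes named here differed by the test of sgZ3 against sgZ1 itself (edgeR quasi-likelihood, Benjamini-Hochberg adjusted). In the same comparison 28.6% of all tested genes passed, so passing does not by itself set these 4 apart. ZCCHC8, the NEXT scaffold, had 23.8, 23.3 and 25.9 CPM in sgZ3 and 31.3, 29.6 and 30.6 CPM in sgZ1, with 32.1, 32.4 and 31.6 CPM in sgC, and its log2 fold change of sgZ3 over sgZ1 was -0.33 (SE 0.09, adjusted p = 0.018). ZCCHC7, named after its values were seen, had 15.9, 15.8 and 18.1 CPM in sgZ3 and 25.9, 24.8 and 26.5 CPM in sgZ1, with 28.2, 23.2 and 23.8 CPM in sgC, a log2 fold change of -0.63 (SE 0.11, adjusted p = 0.0013). ZNF692 averaged 7.43 CPM in sgZ3 and 10.3 CPM in sgZ1, with 6.51 CPM in sgC, a log2 fold change of -0.48 (SE 0.141, adjusted p = 0.025). MSH6 averaged 5.79 CPM in sgZ3 and 70.6 CPM in sgZ1, with 7.62 CPM in sgC, a log2 fold change of -3.59 (SE 0.226, adjusted p = 3.7e-07). No core member was among them. The ZCCHC8 call was lost in 5 of 19 settings and the ZNF692 call in 3 of 18, and the ZCCHC7 and MSH6 calls were kept in 19 of 19 each.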

How the results depend on the processing

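Over both guides the core count was 7 (4 to 8 without 1 library). It was 4 without sgC replicate 1 or 3. With upper-quartile scaling it was 6 (33.7% of tested genes called) and with library totals alone 5 (35.0%). EXOSC2, EXOSC4, EXOSC5 and EXOSC9 passed in all 18 settings. For sgZ1 the count of 4 (1 to 7) became 2 with either of these scalings (26.3% and 26.5% of tested genes called). With the 2 libraries left out together it was 7, of which 6 were higher and 1, EXOSC8, was lower (39.5% of tested genes called). With length and GC offsets it was 7, all higher (30.8%). For sgZ3 the count of 6 ran from 4 to 8. For sgZ3 against sgZ1 the count of 0 (0 to 5) became 1 with DESeq2, no filter or the replicate block, each time EXOSC4, higher. With library totals alone it was also 1, but this was EXOSC10, lower (-0.36, adjusted p = 0.035). It was 7 without both libraries (6 higher and 1 lower) and 3 with the offsets (2 higher and 1 lower). Partner counts without 1 library ran from 5 to 13 over both guides, 3 to 8 for sgZ1, 6 to 12 for sgZ3 and 1 to 6 for the difference. Partners reached 16 for sgZ3 (55.3% of tested genes called) and 11 for the difference (53.2%) without both libraries. For the difference they were 1 with the compared groups only (21.2%) and 5 with the offsets (35.5%). Over all genes, calls without 1 library ran from 2201 to 6337 over both guides, 2129 to 4855 for sgZ1, 3080 to 6796 for sgZ3 and 2501 to 6153 for the difference. Without both libraries they were 7409, 5894, 8246 and 7932 in that order, and at a mean of at least 10 CPM they were 2527 for sgZ1 and 2676 for the difference. Calls over both guides were 56.0% higher, and 45.9% by upper quartile, 36.6% by library totals and 46.5% without both libraries. Library totals alone moved the median of all genes from sgC by -0.173 for sgZ3, and by -0.121 for sgZ3 against sgZ1, and values under that setting are relative to it. The 5.8S difference over both guides stayed below 0 (-0.72 to -0.07 without 1 library) and did not pass. Whether same-numbered libraries pair was not clear (correlations of their deviations -0.121 to 0.249, 3 of 9 over 0.1, and 7 of 18 best matches with their own number). These correlations were 0.00322 to 0.249 for pairs with sgC and -0.121 to -0.00396 between sgZ1 and sgZ3. Pairs of other numbers ran from -0.259 to 0.202. A batch shared by number was not tested. With the replicate block, 7 members were called over both guides (37.3% of tested genes, against 33.2% without it). EXOSC4 was then called between guides (0.48, adjusted p = 0.033). No called gene value changed sign. The smallest changes simulated were seldom recovered. Far fewer genes changed there than were called here, so how often changes of that size were missed in these data was not tested.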
